A study of Homo sapiens with 4 samples.

Results

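Hydrogen peroxide (H2O2) is a small oxidant that crosses membranes. In HCT116, an established human colon cancer cell line, 30 of 16376 genes in a deposited RNA-seq table combined a control mean of at least 50 normalized counts with an H2O2 mean of at most 0.5 of the control mean, and had a name that the choice allowed. The choice left out names holding a hyphen or a dot and names that start like those of long noncoding RNA, small nucleolar RNA, small Cajal body RNA, microRNA and ribosomal protein genes. Of 57 genes past both thresholds, 27 were left out by name, 7 of them encoded by the mitochondrial genome. The 30 genes, called the halved genes below, were thus chosen by their Control and H2O2 means, the contrast described here. Their falls are therefore a description and carry no test. The halved genes made up 0.274% of the 10946 genes with an allowed name and a control mean of at least 50, of which 23 at least doubled. The number rested on single libraries: leaving out the deeper control library gave 47 genes, leaving out the shallower control library 55 and leaving out the shallower H2O2 library 52.

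The libraries came from total RNA by poly(A) selection. There were 2 Control samples, which were untreated, and 2 H2O2 samples, all HCT116 without any labelled genotype change. Neither a dose nor an exposure time is given in the sources used here, and nothing there says whether each sample was a culture of its own. The p-values then cover the spread among the samples alone, and it may be technical. The table names its group means A and B. Since its name puts Control first, A is read as Control, and each direction below depends on that reading. The counts of the 4 libraries were recovered exactly from the means, with 7309731 and 6892854 reads in the deeper and shallower control libraries and 7365032 and 6858809 in the deeper and shallower H2O2 libraries. Of 10 colon epithelium markers 8 were listed, with summed normalized counts of 7596 to 9026 in Control and 9023 to 9432 with H2O2. Of 6 fibroblast markers 3 were listed, at 933 to 1017 and 754 to 813. All 3 muscle markers were listed, at 290.4 to 321 and 290.2 to 319.5. Of 6 immune markers 2 were listed, at 8.63 to 17.5 and 22.9 to 27.0, and the endothelial marker KDR was at 6.16 to 6.71 and 8.32 to 13.5. COL1A1 was called lower and CD14 higher in the authors' deposited table, and PTPRC, CD3E, PECAM1 and VWF were not listed. The part of the fibroblast, immune and endothelial differences in the results was not tested. In bulk RNA, fewer cells that express a gene and less RNA per cell cannot be told apart.

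The halved genes do not belong to a single pathway. By textbook role they hold proteins of the secretory route and cell surface, ion exchangers, signalling proteins and transcription factors, meiotic and ciliary proteins, and proteins that are little described. Several are best known from other tissues: GNRH1 encodes the precursor of the hypothalamic hormone gonadotropin-releasing hormone, TGM1 the transglutaminase that cross-links the envelope of skin cells, SRPK3 a kinase of muscle, and MSH5 and REC8 act on meiotic chromosomes. A poly(A) library reads their transcripts and not their proteins.

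For orientation, these are the promoters of the 3 halved genes with the lowest adjusted p in the authors' deposited table, from 250 bases before to 50 bases after the RefSeq start (GRCh38.p14, 5′ to 3′ on the strand of the gene). Capitals mark matches on either strand to the GC box, which reads GGGCGG, the box named for its letters CCAAT, the E-box written CACGTG, the core TGACG of a cyclic AMP response element, or the ETS factor core with letters CCGGAA.
RHBDL1, chr16:675421-675720, plus strand: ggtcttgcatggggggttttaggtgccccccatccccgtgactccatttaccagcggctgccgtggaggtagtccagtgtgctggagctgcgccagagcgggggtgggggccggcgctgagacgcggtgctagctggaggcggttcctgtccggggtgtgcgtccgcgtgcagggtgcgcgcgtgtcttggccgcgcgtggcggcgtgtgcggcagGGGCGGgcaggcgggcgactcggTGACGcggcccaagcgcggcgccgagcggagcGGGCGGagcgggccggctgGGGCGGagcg
FKBP11, chr12:48925443-48925742, minus strand: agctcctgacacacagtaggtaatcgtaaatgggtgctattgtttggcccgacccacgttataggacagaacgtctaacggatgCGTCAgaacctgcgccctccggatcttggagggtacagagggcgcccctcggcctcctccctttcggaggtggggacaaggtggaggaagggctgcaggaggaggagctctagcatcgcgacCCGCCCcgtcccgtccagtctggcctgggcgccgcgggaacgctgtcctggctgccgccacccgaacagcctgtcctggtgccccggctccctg
TRIM66, chr11:8683182-8683481, minus strand: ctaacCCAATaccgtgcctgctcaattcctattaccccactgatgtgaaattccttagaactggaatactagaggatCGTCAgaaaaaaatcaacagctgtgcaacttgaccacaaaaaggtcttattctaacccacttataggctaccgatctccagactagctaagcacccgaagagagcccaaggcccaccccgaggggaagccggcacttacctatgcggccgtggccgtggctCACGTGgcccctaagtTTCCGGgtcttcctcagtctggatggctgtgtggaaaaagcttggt
These 3 windows differ in composition, with 75% G and C in RHBDL1, 64.7% in FKBP11 and 51.3% in TRIM66. RHBDL1 held 3 GC boxes, FKBP11 held 1 and TRIM66 held none, whereas TRIM66 alone of the 3 held a CCAAT box, an E-box and an ETS core. All 3 held TGACG, which 25.01% of all 27305 RefSeq promoters of that length hold. Among the promoters of 8937 genes with an allowed name and a control mean of at least 50, 34.9% hold it. With only 3 windows, picked by adjusted p, nothing is read from their motifs. The GC box is in 44.6% of all promoters and 73.3% of the 8937, and the CCAAT box in 35.7% and 36.4%. The E-box is in 7.43% and 10.5%, and the ETS core in 17.6% and 30.8%. The TATA box, searched as TATAAA, is in 11.95% and 4.86%, and the AP-1 element, searched as TGANTCA, in 7.76% and 4.25%. Neither was in any of these 3 windows. Only 21 of the 30 halved genes had a promoter entry, 70% of them, so a comparison of promoter composition or motifs over the whole set is void and is not given.

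As a set, the halved genes were of low abundance. Control means ran from 50.7 to 578 normalized counts with a median of 97.6, which lies at the 10.2 percentile of the 10946 genes of the same least level, whose median was 367. A total of 17 halved genes had control means under 100, and 7 had control means above 200. Together they took 0.0604% and 0.0622% of reads in the deeper and shallower control libraries and 0.0250% and 0.0272% in the deeper and shallower H2O2 libraries. Their ratios of H2O2 to Control mean ran from 0.278 to 0.499 with a median of 0.436, a median log2 ratio of -1.20, beside 0.00028 over all listed genes and -0.0036 over the 10946 genes. Both H2O2 libraries lay below both control libraries in all 30, where 25.6% of all listed genes and 27.1% of the 10946 do the same, and nothing is read from the 30 because the rule used that contrast.

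**Figure D1:**
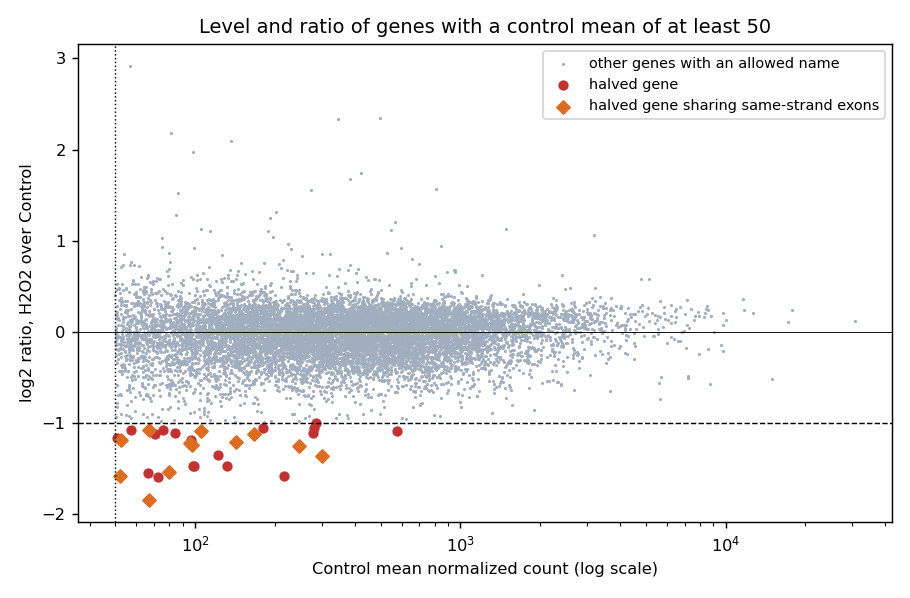
Control mean normalized count (log scale) against the log2 ratio of H2O2 to Control for the 10946 genes with an allowed name and a control mean of at least 50, 1 point a gene, with dashed lines at the ratio limit and dotted lines at the level limit. The halved genes sit between control means of 50.7 and 578, toward the low end, and the 12 drawn as diamonds share exon sequence with another coding gene on their strand.

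Counting error is wide at this depth. Single counts of the halved genes ran from 42 to 645 in Control and from 14 to 282 with H2O2. The 95% interval of the ratio from counting error alone (exact, Clopper-Pearson on the summed counts) stayed under 0.5 for 12 halved genes and reached 0.5 or more for 18, up to 0.655 for SLC9A7. Reads without molecular identifiers are not independent molecules, so these intervals cover counting error only. They come from the same counts that chose the genes, so they are no test against 0.5. The 2 control libraries were a median of 1.18-fold apart over the halved genes and the 2 H2O2 libraries 1.19-fold, against 1.12-fold and 1.07-fold over the 10946 genes. These sets are not matched for level, with median control means of 97.6 and 367, and the part of level in that difference was not tested. Among the halved genes, 14 were higher in the deeper control library and 16 in the shallower.

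**Figure D2:**
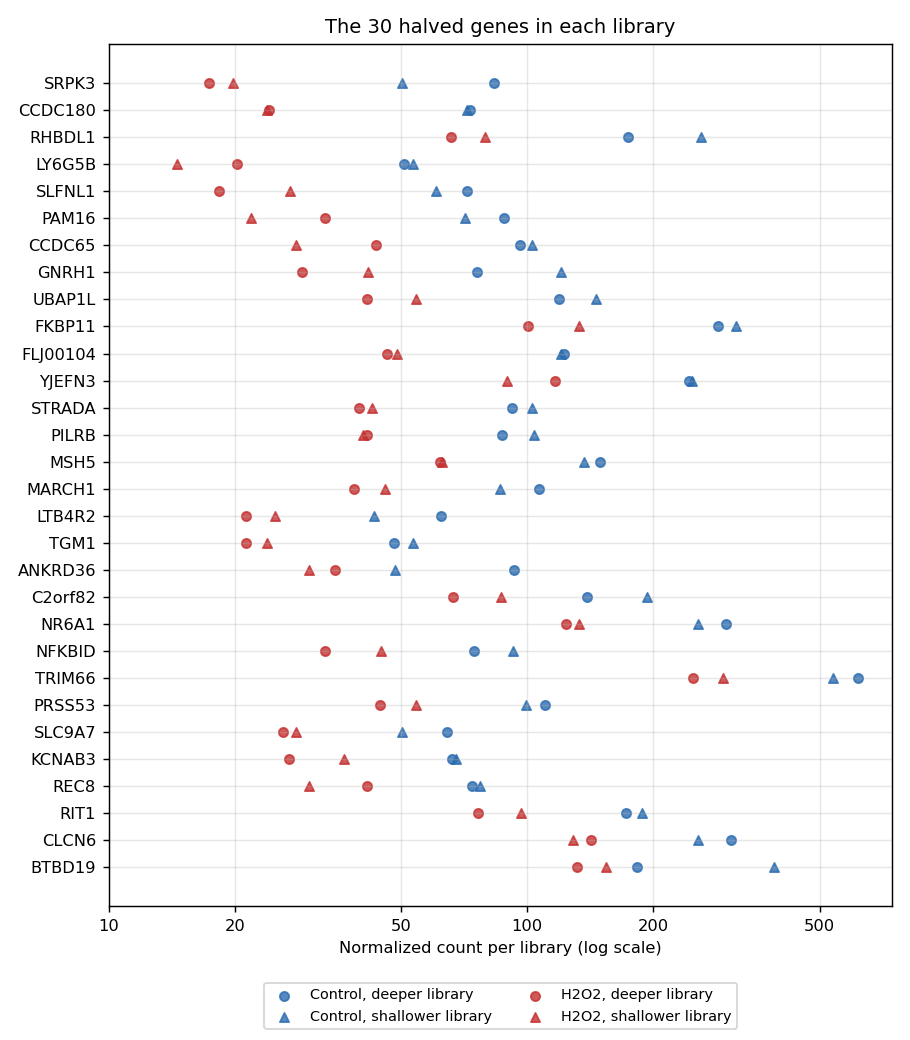
Normalized count of each of the 30 halved genes in each of the 4 libraries (log scale), Control in blue and H2O2 in red, circles for the deeper and triangles for the shallower library of a group, ordered by ratio from SRPK3 (0.278) to BTBD19 (0.499). Every red point lies left of both blue points of its gene, and BTBD19, ANKRD36 and SRPK3 have the widest gaps between their control points.

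Of the 9 genes for membrane and secretory proteins, RHBDL1 and FKBP11 were among the most abundant of the set. RHBDL1 encodes a member of the rhomboid family, proteases that cut within membranes. It was at 174 normalized counts in the deeper control library and 259.7 in the shallower, and at 65.6 and 79.1 in the deeper and shallower H2O2 libraries, a ratio of 0.333. FKBP11 encodes a prolyl isomerase of the secretory pathway, and it was at 286 and 316 in Control and 100.4 and 133 with H2O2, a ratio of 0.388. In both genes the shallower library held the higher value in each group.

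The other secretory and surface genes had lower counts. GNRH1 was at 75.7 and 120.1 normalized counts in the deeper and shallower control libraries and 28.96 and 41.6 with H2O2 (ratio 0.360). Its 2 control values lay further apart than those of FKBP11. C2orf82, also called SNORC, encodes a cartilage proteoglycan and was at 139 and 193 in Control and 66.6 and 86.3 with H2O2 (ratio 0.461). In both genes the shallower control library held the higher value. PRSS53, a serine protease gene, was at 110.2 and 99.6 in Control and 44.4 and 54.1 with H2O2 (ratio 0.469).

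PILRB encodes the activating member of a receptor pair of myeloid cells, and it was at 87.2 and 103.7 in Control and 41.5 and 40.6 with H2O2 (ratio 0.430). Its H2O2 libraries were nearly equal. MARCH1 encodes a ubiquitin ligase that takes immune receptors off the cell surface, and it was at 106 and 86.2 in Control and 38.6 and 45.8 with H2O2 (ratio 0.438). TGM1 lay just above the level limit, at 47.9 and 53.4 in Control and 21.2 and 23.9 with H2O2 (ratio 0.446). LY6G5B, a gene of the LY6 surface protein family in the major histocompatibility complex, was close to that limit too, at 50.8 and 53.4 in Control and 20.3 and 14.6 with H2O2 (ratio 0.334). For TGM1 and LY6G5B each H2O2 value rests on 14 to 23 reads.

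The 3 ion transport genes had ratios within a narrow range, 0.473 to 0.482, at different levels. CLCN6 encodes a chloride and proton exchanger of late endosomes and was at 307 and 255.6 normalized counts in the deeper and shallower control libraries and 142 and 129 with H2O2. SLC9A7 encodes a sodium and proton exchanger of the Golgi and was at 64.2 and 50.3 in Control and 26.1 and 28.1 with H2O2. KCNAB3 encodes a beta subunit of voltage-gated potassium channels and was at 66.1 and 67.7 in Control and 27.0 and 36.4 with H2O2. CLCN6 had several times the control level of the other pair.

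Among 7 genes for signalling proteins and transcription factors, TRIM66 had the highest control level of the whole set and SRPK3 the lowest ratio. TRIM66 encodes a chromatin-reading protein of the TIF1 family and was at 618 and 538 normalized counts in Control and 249 and 293 with H2O2 (ratio 0.469). SRPK3, whose kinase phosphorylates splicing proteins with arginine and serine repeats, was at 83.4 and 50.3 in Control and 17.4 and 19.8 with H2O2 (ratio 0.278). Its control libraries were 1.66-fold apart, and without the deeper of them its ratio was 0.369.

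NR6A1, the gene of an orphan nuclear receptor of germ cells, was at 299 and 255.6 in Control and 124 and 133 with H2O2 (ratio 0.463). RIT1, a RAS-like GTPase gene, was at 173 and 188 in Control and 76.3 and 96.7 with H2O2 (ratio 0.480). Both sat well above the level limit. STRADA encodes a pseudokinase that activates the kinase LKB1, and it was at 92.0 and 102.6 in Control and 39.6 and 42.6 with H2O2 (ratio 0.422). NFKBID encodes a nuclear IkB protein and was at 74.8 and 92.4 in Control and 32.8 and 44.7 with H2O2 (ratio 0.464). LTB4R2, the gene of the low-affinity leukotriene B4 receptor, was at 62.3 and 43.1 in Control and 21.2 and 24.96 with H2O2 (ratio 0.438).

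Of 4 genes of meiosis, cilia and the mitochondrion, MSH5 had the most reads. MSH5 encodes a MutS homolog that works in meiotic recombination and was at 149.5 and 137 normalized counts in Control and 61.8 and 62.4 with H2O2 (ratio 0.434). REC8, the gene of the meiotic cohesin subunit, was at 73.8 and 77.0 in Control and 41.5 and 30.2 with H2O2 (ratio 0.475). CCDC65 encodes a part of the complex that regulates dynein in motile cilia, and it was at 95.9 and 102.6 in Control and 43.4 and 28.1 with H2O2 (ratio 0.360). REC8 and CCDC65 had control values close together and H2O2 values 1.38-fold and 1.55-fold apart. PAM16 encodes a part of the motor that pulls proteins into mitochondria and was at 88.2 and 70.8 in Control and 32.8 and 21.8 with H2O2 (ratio 0.344).

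The last 7 genes are little described. YJEFN3 had the closest control libraries of the 7 halved genes above 200 normalized counts in Control, at 243 and 247, and was at 117 and 89.5 with H2O2 (ratio 0.420). UBAP1L, a relative of the endosomal sorting gene UBAP1, was at 119 and 146 in Control and 41.5 and 54.1 with H2O2 (ratio 0.361). FLJ00104, a name given to a cDNA clone, was at 122.7 and 120.1 in Control and 46.3 and 48.9 with H2O2 (ratio 0.392). CCDC180 and FLJ00104 had the closest agreement within both groups. CCDC180 was at 72.8 and 71.9 in Control and 24.1 and 23.9 with H2O2 (ratio 0.332). SLFNL1, a schlafen-like gene, was at 71.9 and 60.6 in Control and 18.3 and 27.0 with H2O2 (ratio 0.343).

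ANKRD36 and BTBD19 had the control libraries furthest apart. ANKRD36 was at 93.0 and 48.2 normalized counts in Control and 34.8 and 30.2 with H2O2 (ratio 0.460), and its ratio was 0.673 without the deeper control library. BTBD19 was at 183 and 388 in Control and 131 and 154 with H2O2 (ratio 0.499). Its ratio was 0.779 without the shallower control library and 0.539 without the deeper H2O2 library. BTBD19 thus met the rule only with both of those libraries included. A total of 17 halved genes stayed at or under 0.5 whichever library was left out, and 13 rose above it in at least 1 of the 4 cases.

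**Figure D3:**
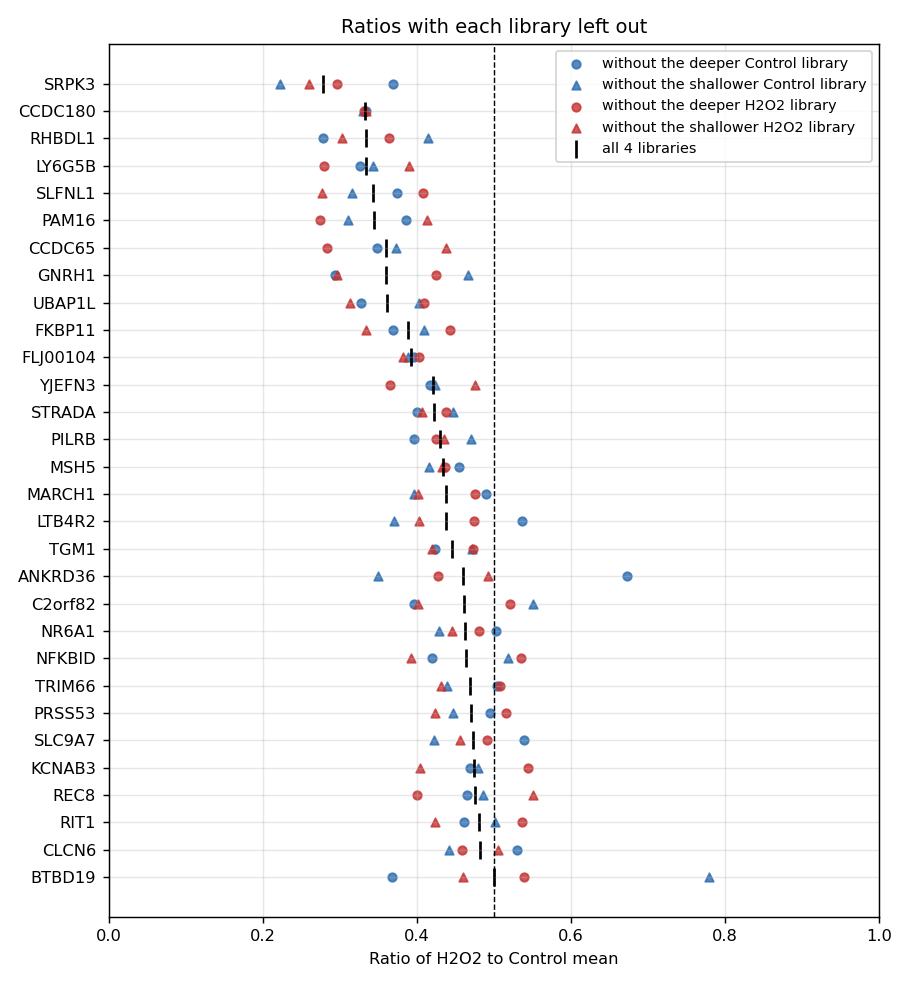
Ratio of H2O2 to Control mean for each halved gene with all 4 libraries (black bars) and with 1 library left out (blue, a control library; red, an H2O2 library; circles, the deeper; triangles, the shallower), with the limit of 0.5 dashed. The points run from 0.223 for SRPK3 to 0.779 for BTBD19, and 13 genes have a point right of the limit.

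Close to the limits the choice of genes is fine-grained. RIT1 at 0.480, CLCN6 at 0.482 and BTBD19 at 0.499 were the last inside the ratio limit, and PAQR6 at 0.502, TMEM86B at 0.505 and HYPK at 0.505 were the first outside. On the level limit TGM1 at 50.7, LY6G5B at 52.1 and LTB4R2 at 52.7 were the last inside. CHRNA10 at 46.3, HDAC10 at 48.2 and 7SK at 49.0 met the ratio limit and missed the level limit, with ratios of 0.2999, 0.344 and 0.479.

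In the authors' deposited table all 30 halved genes were lower at a DESeq adjusted p under 0.05, with adjusted p from 1.96e-13 to 0.00941, where 4.62% of all listed genes and 5.52% of the 10946 were called lower. The rule and this test used the same contrast, so the count adds nothing to the choice. limma, with Benjamini-Hochberg adjustment over all listed genes, called 28 of the 30, beside 2.58% of all listed genes. ANKRD36 (limma adjusted p 0.0624) and BTBD19 (limma adjusted p 0.0546) were the exceptions. With a library left out limma lost further genes. Without the deeper H2O2 library it did not call KCNAB3, LTB4R2, NFKBID, SLC9A7 and TGM1 (limma adjusted p 0.104 to 0.166). Without the deeper control library it did not call LTB4R2 (limma adjusted p 0.137) and SLC9A7 (limma adjusted p 0.108), and without the shallower H2O2 library it did not call REC8 (limma adjusted p 0.115).

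The close relatives of the halved genes are given as a description. A relative with an allowed name and a control mean of at least 50 would itself be a halved gene at a ratio of 0.5 or less, so the rule fixes that such relatives lie higher. For 21 genes with recognised families or complexes, grouped after the values were seen, 110 relatives were listed, of which the authors' deposited table called 2 lower and 2 higher, beside 4.62% and 2.58% of all listed genes, with ratios from 0.592 to 2.18 and a median log2 ratio of 0.025. The test of a difference between a halved gene and its relatives was not made, since the rule chose the halved gene for its ratio. SRPK3 stood at 0.278 while SRPK2 was at 1.05 and SRPK1 at 1.07. RIT1 stood at 0.480 while NRAS, HRAS, MRAS, RRAS and RRAS2 ran from 0.932 to 1.12. PAM16 stood at 0.344 while 10 other parts of the import machinery, TIMM23, TIMM44 and HSPA9 among them, ran from 0.940 to 1.16. FKBP11 stood at 0.388 while 13 other FKBP genes ran from 0.802 (FKBP14) to 1.49 (FKBP7).

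The same description holds partners of single complexes. STRADA stood at 0.422, its paralog STRADB at 0.919, the kinase gene STK11 (LKB1) at 0.905 and the scaffold gene CAB39 at 1.11. REC8 stood at 0.475, while SMC1A at 0.998, SMC3 at 1.028 and RAD21 at 1.15, the cohesin genes of dividing somatic cells, had ratios near 1. MSH5 stood at 0.434 and MSH6, a mismatch repair gene, at 0.997, and MSH4, the meiotic partner of MSH5, had a control mean of 10.8 and a ratio of 1.16. UBAP1L stood at 0.361 and UBAP1 at 1.02.

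The 4 called relatives belonged to 3 families. The IkB gene NFKBID stood at 0.464, while NFKBIA, the classical inhibitor of NF-kB, was at 1.88 (authors' DESeq adjusted p 3.66e-07) and BCL3 at 1.43 (adjusted p 0.0240), both higher. NFKBIB, NFKBIE and NFKBIZ were at 1.20, 1.31 and 1.29 and did not pass the test. LTB4R, the high-affinity receptor gene next to LTB4R2, was at 0.592 (adjusted p 1.82e-04), and SLC9A8, an exchanger related to SLC9A7, at 0.703 (adjusted p 0.0371), both lower. The rhomboid relatives of RHBDL1, from RHBDF1 at 0.730 to RHBDD3 at 1.04, did not pass the test.

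**Figure D4:**
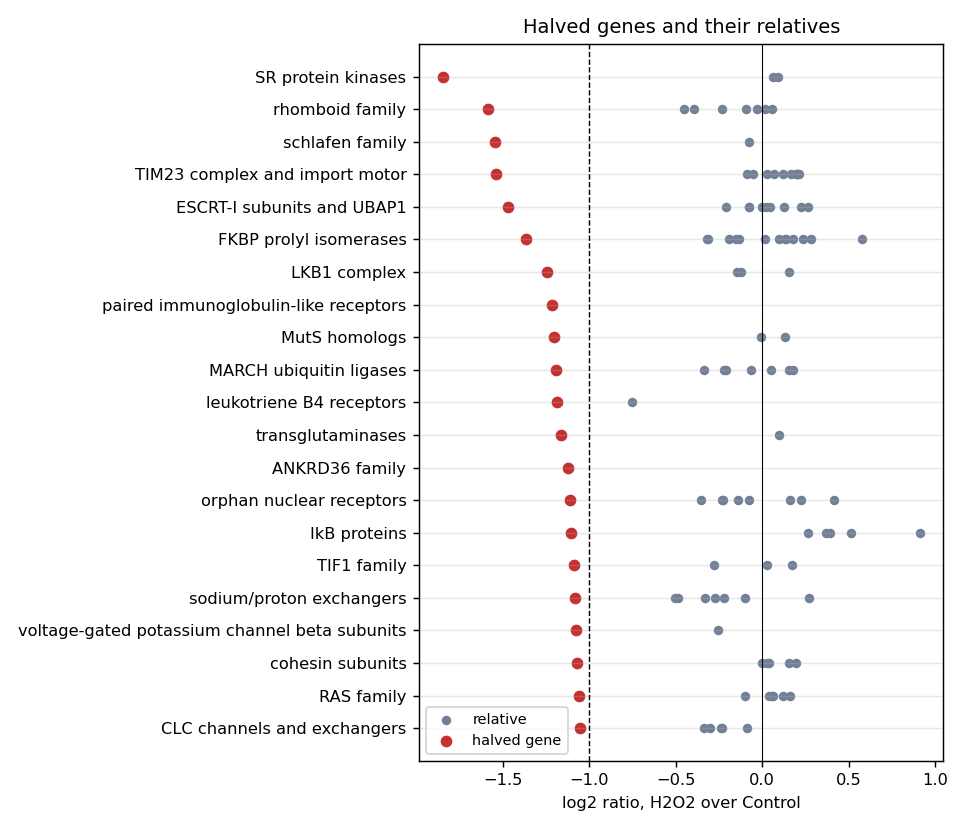
log2 ratio of H2O2 to Control for 21 halved genes (red) and their listed relatives with a control mean of at least 50 (grey), 1 row a family, with the ratio limit dashed. The 96 relatives run from a ratio of 0.592 (LTB4R) to 1.88 (NFKBIA), and the rule itself keeps any of them from lying left of the limit.

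By name the set was scattered as well. Only 1 symbol stem, CCDC, held 2 halved genes, and 82 other CCDC genes with a control mean of at least 50 had a median ratio of 0.966. No halved gene was on any of 25 lists of pathways and complexes, and nothing is read from that. The lists were chosen with earlier results known and held only 738 distinct genes of the 12145, of any name, with a control mean of at least 50. The authors' deposited table called 111 of the 738 lower and 5 higher. Their ratios ran from 0.520 to 2.09 with a median log2 ratio of -0.17. Lists of very large proteins held the largest shares of lower genes, beside 5.52% over the 10946 genes: 16 of 39 genes of Golgi and membrane traffic (median log2 ratio -0.34) and 13 of 42 cytolinkers and large cytoskeletal proteins (median -0.32) were lower. By median the halved genes were not large genes, although their coding lengths ran from 276 to 5823 bases. Their median coding length was 1314 bases against 1470 over 10839 other coding genes of the same least control level, their median exonic length 4580 against 5330, and their median gene span 15319 bases against 34391.

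Some of the halved genes have exon sequence in common with a neighbour, which the rule did not use. Of the 29 halved genes matched to GENCODE release 29, all protein coding, 12 (41.4%) shared 1 or more exon bases with another coding gene on the same strand. The same held for 8.56% of the 10839 other genes, 9.40% of 7316 others within the control means of the set, and 1 of the 23 genes that at least doubled (4.35%). This was 1 of 10 annotation properties looked at, this and most others chosen after the values were seen, and most of them lay closer to the rest. Coding exons on the opposite strand overlapped 27.6% of the halved genes and 24.7% of the others, and transcripts marked for nonsense-mediated decay were annotated for 44.8% and 44.5%. At least 1 retained-intron transcript was annotated for 69.0% and 60.2%, for 55.3% of the 7316 and for 30.4% of the doubled genes. For 3 or more such transcripts the shares were 37.9%, 29.4%, 23.3% and 8.70%. Exons shared with or overlapped by any other annotated gene were found for 65.5% of the halved genes, 49.7% of the others and 48.9% of the 7316.

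Several of the shared exons belong to read-through genes, models that join 2 neighbouring genes in 1 transcript. CORO7-PAM16 covered 21.9% of the exonic bases of PAM16, and MSH5-SAPCD1 covered 47.3% of those of MSH5. PLXNB3 covered 30.2% of SRPK3. A coding gene on the same strand covered 60.97% of LY6G5B, 35.5% of PRSS53 and 34.1% of YJEFN3. For STRADA the share was 18.1%, and LTB4R covered 10.98% of LTB4R2. The remaining shares were smaller, with 1.53% of PILRB, 4.82% of FKBP11, 5.03% of C2orf82 and 5.50% of KCNAB3. The read-through model STAG3L5P-PVRIG2P-PILRB, which is not annotated as coding, covered 49.2% of PILRB. How reads in such exons were counted is not given in the sources used here, so values of these genes are uncertain where reads could be split between genes. By a second measure, words of 75 bases in the longest transcript, over 10% of the sequence was also found in other genes for 11 halved genes and under 1% for 15. It was taken for the halved genes only, so no share of other genes stands beside these counts and nothing is read from them. MSH5 at 88.5%, LY6G5B at 72.8%, LTB4R2 at 48.6% and ANKRD36 at 41.5% had the most, while RHBDL1, TRIM66, RIT1, GNRH1 and CCDC65 had none. PAM16 had none either, although CORO7-PAM16 covers part of its exons, so this measure, which used the longest transcript only, can miss sharing.

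Across the table as a whole the sharing and the other genes had similar medians. The 940 sharing genes with a control mean of at least 50 had a median log2 ratio of -0.0050 and the 9928 others -0.0039. Of the sharing genes 8.40%, 12 halved genes among them, and of the others 5.22%, 17 halved genes among them, were called lower in the authors' deposited table. Called higher were 0.851% and 1.66%. The difference between the classes was not tested. The part of read assignment in these shares was not tested.

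Of the genes that overlap a halved gene, 14 other listed genes gave values of their own. NDUFA13, a gene of respiratory complex I that shares exon bases with YJEFN3, was at 0.534 (authors' DESeq adjusted p 0.0272). SAPCD1, next to MSH5, was at 0.501 (adjusted p 0.0372), and GIGYF2, which overlaps C2orf82, at 0.746 (adjusted p 0.0232). With LTB4R, these 4 of 14 were called lower in the authors' deposited table, beside 4.62% of all listed genes and 8.40% of the sharing genes. The other 10 did not pass the test. They ran from NPPA at 0.492 (control mean 38.2), which overlaps CLCN6 on the opposite strand, to NGEF at 1.14, and PLXNB3, which overlaps SRPK3, was at 0.685.

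FKBP11 and CCDC65 are a pair on chromosome 12 and overlap on opposite strands, over 1.17% of the exonic bases of FKBP11 and 2.44% of those of CCDC65. Their ratios were 0.388 and 0.360, and no other listed gene lies between them. Without a strand setting, reads from the overlap cannot be told apart, and its part in the 2 ratios was not tested.

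A further 2 runs of neighbours within 200 kb held more than 1 halved gene. On chromosome 14, REC8, TGM1 and LTB4R2 stood among 10 other listed genes with ratios from 0.521 to 1.17 and a median of 0.877. TSSK4 at 0.529 and CHMP4A at 0.521, next to REC8, had control means of only 38.7 and 10.5 and did not pass the test, while NEDD8 at 1.17, GMPR2 at 1.05 and TINF2 at 0.946 lay between them and TGM1. On chromosome 6, LY6G5B and MSH5 stood among 8 others from 0.501 to 1.68 with a median of 1.15, including CLIC1 at 1.19 and DDAH2 at 1.10. In each run 1 other gene was called lower, LTB4R and SAPCD1. Each was in its run only because it overlaps the last halved gene there, and both are among the overlapping genes counted above.

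**Figure D5:**
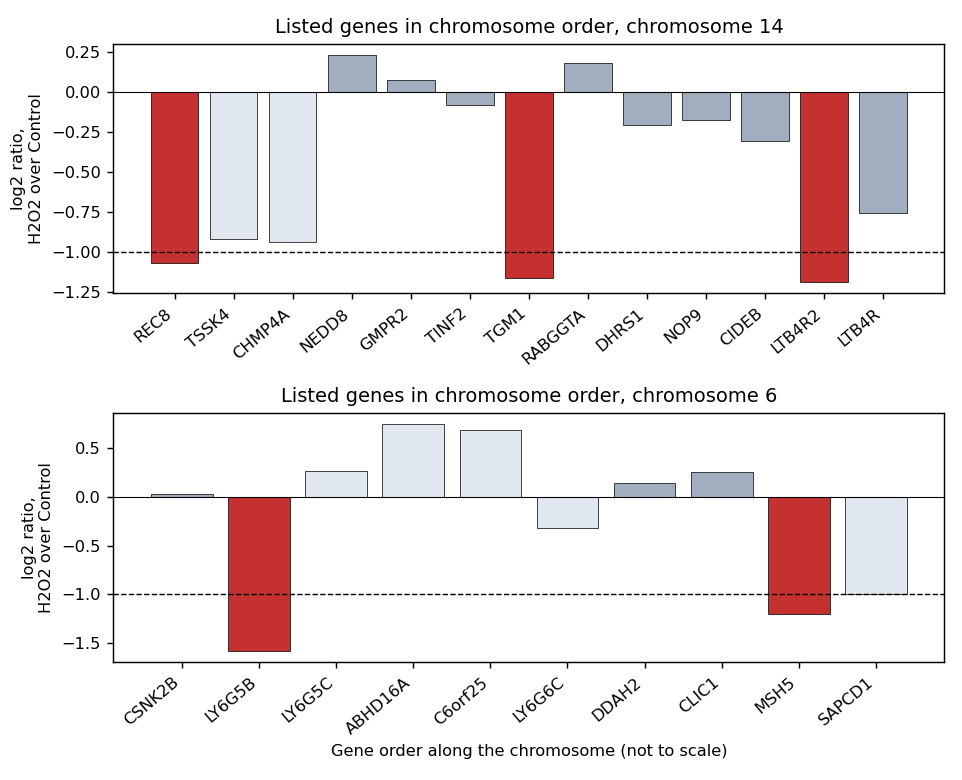
log2 ratio of H2O2 to Control for listed genes in chromosome order on chromosome 14 (top) and chromosome 6 (bottom), 1 bar a gene, halved genes in red, other genes in grey and pale where the control mean is under 50, with the ratio limit dashed. Genes near or above a ratio of 1, such as NEDD8 at 1.17 and CLIC1 at 1.19, lie between the halved genes of each run.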

How the data were processed

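RNA-seq of 2 Control and 2 H2O2 samples of HCT116 cells was analysed from 1 table of 16376 genes. Tools named in the submitters' processing notes are CASAVA 1.8, STAR, HTSeq, DESeq, FastQC and Trim Galore, with the build hg19. Settings, annotation release and strand setting were not given in the sources used here. In that table the mean columns are a signal, group means of size-factor normalized counts, per the file headers. The fold column is the ratio of the group means and the log2 column its log2, both as deposited. The authors' p-value and its adjustment fill the last columns, per the file headers.

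The counts of the single libraries were solved from each group mean, as 2 whole numbers over 2 size factors, within a tolerance of 1e-09, and every gene had a single solution. The table ties no recovered library to a replicate number. The recovered counts served for values per library, leave-one-out ratios and, as an alternative, limma 3.58.1 in R 4.3.3 on log2(normalized count + 1) with a mean-variance trend. The main test is the authors' own. limma was tested on simulated data.

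The halved genes and all lists were chosen with earlier results of these data known. Families, roles and annotation properties other than lengths, promoters and symbol stems were chosen after the values were seen. The rule for named genes takes every halved gene and the nearest genes outside each limit. Other genes were chosen after their values were seen. Some relatives of the halved genes are not reported here by name. Exon sharing, lengths and gene order came from GENCODE release 29 by symbol, which is on another build than the table. Promoters came from RefSeq (GRCh38.p14).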

Additional observations from a re-analysis of the deposited data

How the results depend on the processing

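The number of genes that met the rule depended on its limits and on single libraries. With a least control mean of 20 or 100 in place of 50 it was 78 or 13 instead of 30, and with a highest ratio of 0.4 or 0.6 it was 11 or 120. With each library left out in turn it ran from 39 to 55, of which 23 to 28 were among the 30. With scaling by library totals over the listed genes, in place of the authors' size factors, 33 genes met it, including all 30. The median log2 ratio of the 30 genes was -1.21 with library totals and stayed between -1.29 and -1.19 with a library left out. No library left out could turn a direction, since both H2O2 libraries of each of the 30 genes lay below both control libraries. limma called 28 of the 30 genes with a pseudocount of 0.5, 1 or 5, with genes of mean at least 10 only and with library totals, the last chosen after the values were seen. With each library left out it called 25 to 29, and 22 in all 4 fits, while the share of all listed genes called lower ran from 1.10% without the deeper H2O2 library to 11.6% without the shallower control library. In those fits the lone library is assumed to vary like those of the other group. With all listed genes of an allowed name as the comparison, also chosen after the values were seen, 9.33% shared exon bases with a coding gene on the same strand. No paired analysis was possible because the deposited means carry no replicate number. Depth limits the lowest H2O2 values, which rest on 14 reads a library at the least.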
